A study of Mus musculus with 12 samples.

Results

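The genes described here are 49 mouse genes of the cell cycle, taken from the 54232 Ensembl gene IDs in the count table by their gene symbols in GENCODE release M21. Each of the 49 was found. They were put in 5 groups by role. There were 5 cyclins and kinases of G1, 7 genes of the switch from G1 to S, 13 genes of DNA replication and nucleotide supply (S), 19 genes of G2 and mitosis (G2/M) and 5 inhibitors. Their RNA was measured by sequencing of whole liver from 5 pair-fed (PF) and 7 alcohol-fed (AF) mice, with 1 library per mouse. All were male mice of strain C57BL6/J with an age of 8 weeks on the labels. PF mice received an isocaloric high-fat liquid diet. AF mice received the high-fat liquid diet with alcohol, raised to 27 g/kg/day over 8 weeks. They also received a weekly binge of 5 g/kg, which began after the start of feeding. Both groups were treated for 8 weeks. By the methods of the study, the liquid diet was given by the intragastric route beside a solid diet high in cholesterol and fat eaten freely, and tissue was taken a day after the last binge. This regimen is a model of alcohol-associated steatohepatitis (ASH). The comparison asks which cell cycle genes differ between AF and PF livers, in which phase, and in how many of the livers.

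Most hepatocytes of an adult liver rest outside the cycle and can enter it again when tissue is lost. D cyclins with Cdk4 or Cdk6 start this entry by inactivating the retinoblastoma protein, which frees E2F factors to switch on cyclin E and the replication genes. Cyclin A, cyclin B and Cdk1 later drive the cell through G2 and mitosis, and inhibitors such as p27 and p18 hold the kinases in check. Kupffer cells, recruited macrophages, stellate cells and bile duct cells can also divide in a damaged liver. In bulk RNA, more dividing cells and more RNA per dividing cell cannot be told apart, and neither can the type of cell.

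Between 24129900 and 30578639 reads per library were counted on genes. Levels are given as CPM, the counts scaled to a common library size with TMM factors, which lay between 0.832 and 0.901 in PF and between 0.880 and 1.36 in AF livers. Of the 49 genes, 47 had enough counts to be tested, whereas Cdkn2a and Cdkn2b did not. Among all 14168 genes tested, 3116 (22%) were higher and 2519 (17.8%) were lower in AF livers at an adjusted p below 0.05 in edgeR's quasi-likelihood test, with a median log2 fold change of 0.04. Alb, the albumin gene of hepatocytes, was at 73640 to 110900 CPM in PF and 37150 to 83940 CPM in AF livers, and none of the hepatocyte markers examined was at 0.

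Of the 47 tested cell cycle genes, 28 were higher in AF livers and 0 were lower, beside 22% higher and 17.8% lower among all genes. The count of 28 became 12 to 14 without any 1 of PF replicates 2 to 5 or AF replicate 3, 16 without AF replicate 1 and 17 without AF replicate 2. The counts without PF replicate 2, 3 or 5 include Cdkn2b, which entered the test there through its counts in AF libraries. The median log2 fold change of the 47 genes was 1.14. The 19 genes of G2/M had a median of 1.79 and 14 of them passed the test. The median was 0.76 for the S genes, of which 8 of 13 passed, and 0.59 for the G1/S genes, of which 1 of 7 passed. In G1, 3 of 5 genes were higher with a median of 0.40, and among the inhibitors 2 of 3 tested genes were higher with a median of 0.90. Every AF liver was above every PF liver for only 2 of the 47 genes, Cdk4 and Cdkn2c, and 8.2% of all genes tested had this separation. For 0 of the 47 was every AF liver below every PF liver, against 9.49% of all genes. For the other genes the groups overlapped, and the livers that made the overlap are named for each phase.

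**Figure D1:**
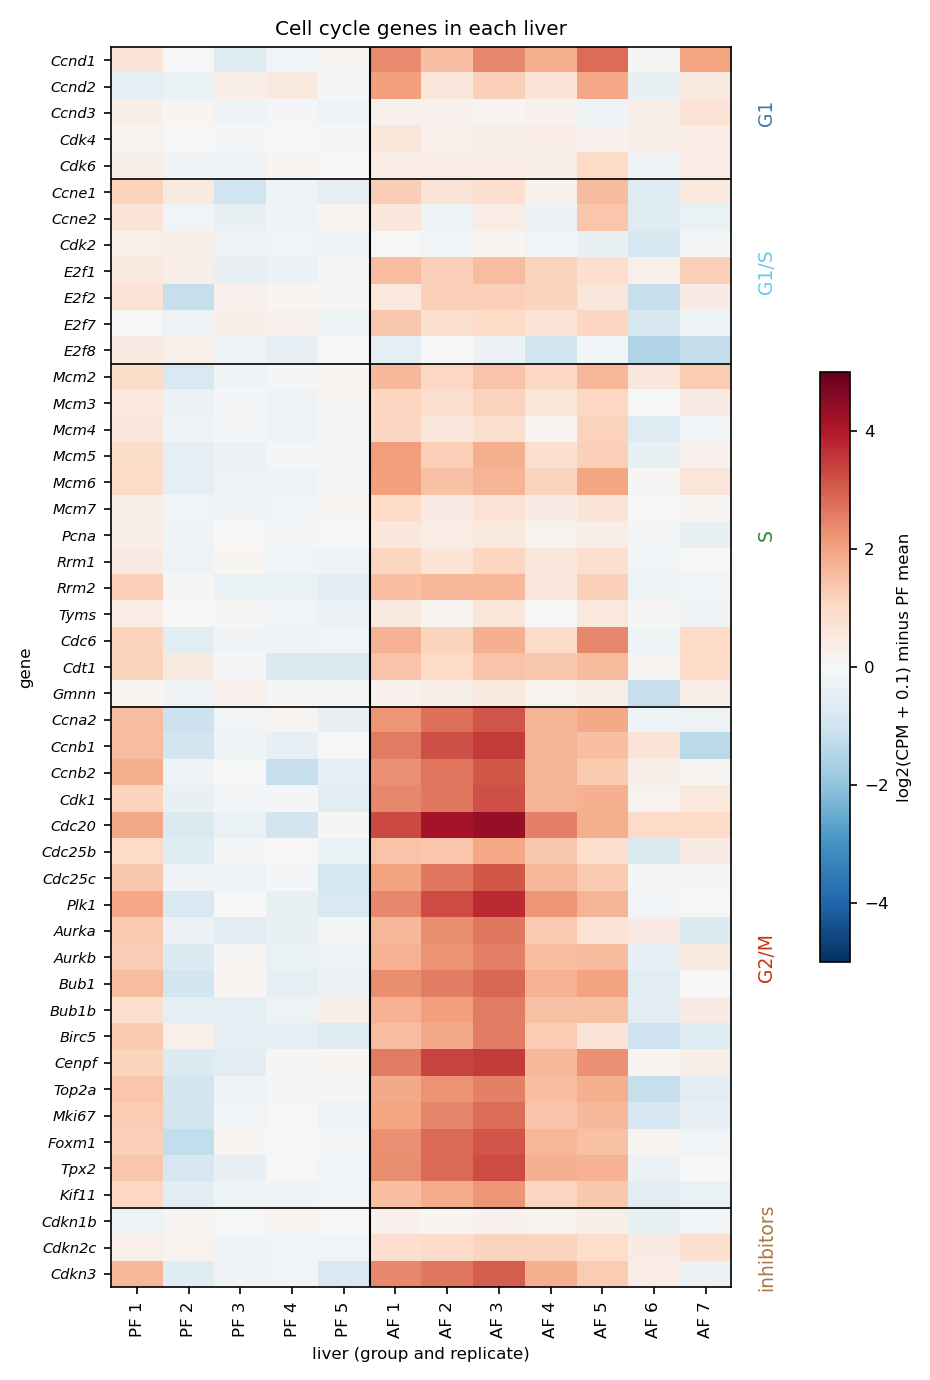
Level of each tested cell cycle gene in each liver, as log2(CPM + 0.1) minus the mean of the PF livers, with genes in rows by phase and livers in columns by group and replicate. The G2/M rows are raised in AF replicates 1 to 5 and in PF replicate 1, and lie near the PF mean in AF replicates 6 and 7.

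**Figure D2:**
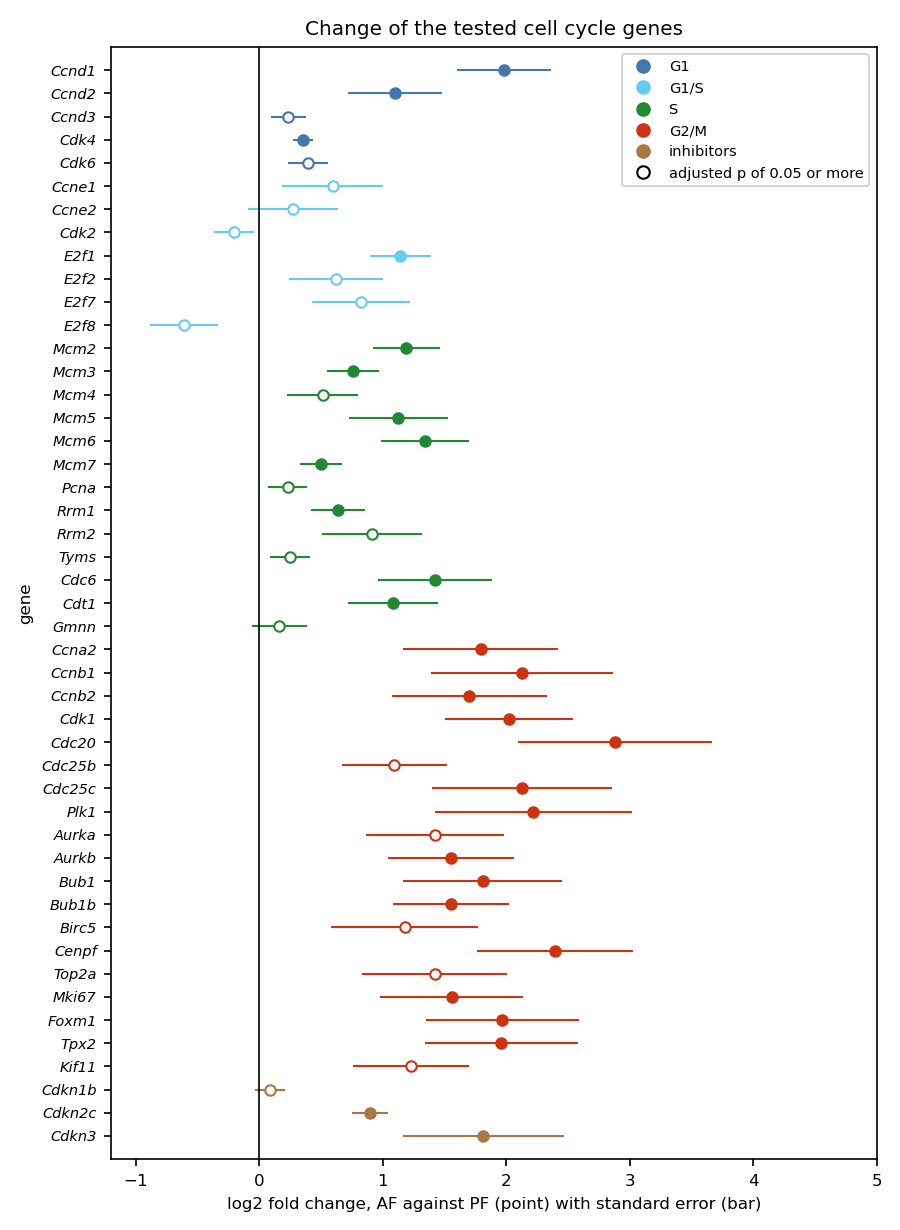
Log2 fold change of AF against PF livers for the 47 tested genes, as points with standard errors as bars, with filled points for an adjusted p below 0.05. The largest change is in G2/M, where the points run from 1.09 to 2.88, and Ccnd1 of G1 lies within this range.

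In G1 the largest change was that of Ccnd1, which codes for cyclin D1, the cyclin that carries hepatocytes out of rest. Its level was 44.1, 27.4, 18.2, 25.3 and 29.7 CPM in PF replicates 1 to 5, and in AF livers the lowest was 28.7, the median 109 and the highest 195 CPM. Thus 6 of 7 AF livers lay above every PF liver, and AF replicate 6 lay within the PF range. The log2 fold change was 1.98 ± 0.38 (SE, adjusted p = 0.00169). Exact two-sided permutation of the mean log2(CPM + 0.1) gave p = 0.00758, and 0.0303 after Benjamini-Hochberg adjustment over the 8 genes tested in this way. Cdk4, the kinase partner of D cyclins, changed much less but in every liver. It was at 27.7, 25.0, 23.6, 25.5 and 23.3 CPM in PF livers and from 28.8 to 37.6 CPM in AF livers, with a median of 31.7. The lowest AF value was above the highest PF value, and the log2 fold change was 0.35 ± 0.08 (adjusted p = 0.00401). Both genes also passed in the 12 fits that left out 1 library.

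Ccnd2, a D cyclin that is also used by non-parenchymal cells, was at 8.61 to 16.7 CPM in PF and 9.01 to 48.8 CPM in AF livers. It was above the PF range in 5 of 7 AF livers (log2 fold change 1.10 ± 0.38, adjusted p = 0.0339). That call was lost without PF replicate 1, 2 or 5 or without AF replicate 1, 3 or 5, with an adjusted p of up to 0.0790. Cdk6, the other D cyclin kinase, was above the PF range in 6 of 7 AF livers but did not pass (0.40 ± 0.16, adjusted p = 0.0659). Ccnd3 gave 0.24 ± 0.14 (adjusted p = 0.208). Compared per transcript length (TPM), Ccnd1 went from a mean of 13.4 TPM in PF to 75.9 in AF livers, the highest mean of the 49 genes in AF livers, whereas Ccnd2 reached 8.89 and Ccnd3 6.48 TPM. TPM values carry no TMM scaling. The exons of Ccnd1, Ccnd3 and Cdk4 overlap those of LTO1, Bysl and Tspan31 on the opposite strand, and the strand setting of the counting is not given in the sources used here, so reads of these neighbours could be included.

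At the switch from G1 to S, E2f1 rose whereas the cyclin E genes and Cdk2 did not pass the test. E2f1, an activating E2F factor that turns on replication genes, was at 3.40, 3.02, 1.79, 1.93 and 2.22 CPM in PF livers. Its lowest, median and highest AF values were 2.87, 5.54 and 7.23 CPM. Again 6 of 7 AF livers were above the PF range and AF replicate 6 was not. The log2 fold change was 1.14 ± 0.24 (adjusted p = 0.00317), and it passed with each library left out in turn.

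Ccne1 and Ccne2, the cyclins E that work with Cdk2, had log2 fold changes of 0.59 ± 0.41 and 0.27 ± 0.36 (adjusted p = 0.264 and 0.578), and the value of Ccne2 was -0.058 without AF replicate 5, the liver with its highest level. Cdk2 was at 9.59 to 14.3 CPM in PF and 6.14 to 12.2 CPM in AF livers (-0.21 ± 0.16, adjusted p = 0.325), and with library totals in place of TMM factors its value was 0.18 while the median of all genes was 0.40. Within each library, the log2 level of Cdk4 minus that of Cdk2 was 0.80 to 1.32 in PF and 1.38 to 2.32 in AF livers. These ratios do not depend on the scaling, and the groups did not overlap. Reads of Tspan31 could be included in Cdk4 here too. The other activating factor, E2f2, gave 0.62 ± 0.38 (adjusted p = 0.209).

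E2f7 and E2f8 code for atypical E2F factors that repress E2F target genes and are known in liver for promoting polyploid hepatocytes. Neither passed the test. E2f7 gave 0.82 ± 0.40 (adjusted p = 0.114) and E2f8 gave -0.61 ± 0.27 (adjusted p = 0.0899). E2f8 was at 4.48, 4.03, 2.75, 2.52 and 3.30 CPM in PF livers and at 1.12 to 3.31 CPM in AF livers, with a median of 2.36, so 0 of 7 AF livers were above the PF range. It was the only 1 of the 47 genes called lower in any of the 20 alternative fits, with an adjusted p of 0.0452 without AF replicate 2. Without AF replicate 6, 3 genes of the G1/S group were called higher instead of 1. Exons of E2f8 and Ccne2 overlap Gm2788 and Ints8 on the opposite strand.

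In S phase, 5 of the 6 subunits of the MCM helicase were higher in AF livers. The helicase is loaded onto origins in G1 by Cdc6 and Cdt1 and unwinds the DNA in S. Mcm6 was at 17.1, 6.18, 7.38, 7.83 and 8.37 CPM in PF livers, and at 9.12, 24.3 and 36.3 CPM in the lowest, the median and the highest AF liver. Except for PF replicate 1, the PF livers were close together, and 5 of 7 AF livers were above them all. The log2 fold change of Mcm6 was 1.34 ± 0.35 (adjusted p = 0.00957).

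Mcm2 gave 1.19 ± 0.27 (adjusted p = 0.00446), with 6 of 7 AF livers above the PF range, and Mcm3 gave 0.76 ± 0.21 (adjusted p = 0.0125), with 5 of 7. These and Mcm6 passed with each library left out. Mcm5 (1.13 ± 0.40, adjusted p = 0.0402) and Mcm7 (0.50 ± 0.17, adjusted p = 0.033) passed in the fit of all libraries, and Mcm4 did not (0.51 ± 0.29, adjusted p = 0.17). Mcm5 was lost without any 1 of PF replicates 2 to 5 or AF replicate 1, 2, 3 or 5, and Mcm7 without PF replicate 2, 3 or 4 or AF replicate 1, 3 or 5, so that without any 1 of the libraries that both lists share 3 of the 6 subunits passed. For Mcm5 the exact permutation test gave p = 0.0556 (0.111 adjusted over the 8 genes). Mcm7 shares exon sequence with Ap4m1 and Cops6 on the opposite strand.

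The loading factors Cdc6 (1.42 ± 0.46, adjusted p = 0.0256) and Cdt1 (1.08 ± 0.36, adjusted p = 0.0309) were higher, while Gmnn, which codes for the Cdt1 inhibitor geminin, was not (0.16 ± 0.22, adjusted p = 0.576). Gmnn was at 3.17 CPM in AF replicate 6 and at 8.13 to 10.1 CPM in the other AF livers. Cdc6 was a low gene, with 82 counts in all PF and 455 in all AF libraries. Its call was lost without any 1 of PF replicates 2 to 5, with an adjusted p of up to 0.0655. That of Cdt1 was lost without PF replicate 3, 4 or 5 or AF replicate 1, 3, 4 or 5 (up to 0.0767). Of the genes for nucleotide supply, Rrm1, the large subunit of ribonucleotide reductase, was higher (0.64 ± 0.22, adjusted p = 0.0333). The Rrm1 call was lost without any 1 of PF replicates 2 to 5 or AF replicate 1, 2, 3 or 5 (up to 0.0802). The small subunit Rrm2 was at 4.25 to 14.8 CPM in PF and 5.40 to 20.3 CPM in AF livers and did not pass (0.91 ± 0.41, adjusted p = 0.0899). Tyms, which makes thymidylate, and Pcna, the sliding clamp of the replication fork, did not pass either (0.25 ± 0.16 and 0.23 ± 0.16). Pcna was among the most abundant of these transcripts per length, with a mean of 19.2 TPM in PF and 31.4 in AF livers. The count of 8 S genes became 4 without PF replicate 2 or 5 or without AF replicate 1, 3 or 5, and 3 without PF replicate 3 or 4.

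The genes of G2 and mitosis had the largest median change of the 5 groups. Their log2 fold changes ran from 1.09 for Cdc25b, which did not pass, to 2.88 for Cdc20. Ccnd1 of G1, at 1.98, lay within this range. Cdk1, the kinase that brings about mitosis, was at 5.76, 1.97, 2.50, 2.44 and 1.72 CPM in PF livers. In AF livers the lowest value was 2.98, the median 9.29 and the highest 25.4 CPM. PF replicate 1 was above the other PF livers, and 5 of 7 AF livers were above PF replicate 1. The log2 fold change was 2.02 ± 0.52 (adjusted p = 0.00859).

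Cdc20, which activates the anaphase-promoting complex to end mitosis, was at 2.51, 0.32, 0.458, 0.275 and 0.633 CPM in PF livers and at 1.27, 3.91 and 14.4 CPM in the lowest, the median and the highest AF liver. All AF livers were above PF replicates 2 to 5, but only 4 of 7 were above PF replicate 1. The change of 2.88 ± 0.79 (adjusted p = 0.0114) was the largest of the 47 genes. A short stretch of Cdc20 exon sequence overlaps Elovl1 on the opposite strand.

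Cenpf, a protein of the kinetochore, rose by 2.40 ± 0.63 (adjusted p = 0.00966), from 0.595 to 2.31 CPM in PF to 1.12 to 12.5 CPM in AF livers. Bub1b, the spindle checkpoint kinase BubR1, rose by 1.55 ± 0.47 (adjusted p = 0.0186). Cdk1, Cdc20, Cenpf and Bub1b passed with each library left out in turn, and they were the only G2/M genes to do so.

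The mitotic cyclins rose, and Ccna2 was above the PF range in 5, Ccnb1 in 4 and Ccnb2 in 3 of 7 AF livers. Ccnb1, cyclin B1, was at 3.25, 0.503, 0.875, 0.747 and 1.04 CPM in PF livers and at 0.352, 3.57 and 12.9 CPM in the lowest, the median and the highest AF liver. AF replicate 7 had the lowest Ccnb1 level, while AF replicates 2 and 3 held 10.5 and 12.9 CPM. The lowest level rests on 10 counts, against 11 in PF replicate 2, so these 2 livers are hardly told apart. The fit gave 2.13 ± 0.74 (adjusted p = 0.0345), whereas the exact permutation test gave p = 0.0732 (adjusted 0.117). Ccna2 and Ccnb2 gave 1.79 ± 0.63 and 1.70 ± 0.63 (adjusted p = 0.036 and 0.0454), and Ccna2 shares exon sequence with Exosc9 on the opposite strand.

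Among the regulators of mitotic entry, Foxm1, the transcription factor of late cell cycle genes, rose by 1.97 ± 0.62 (adjusted p = 0.0226), the polo kinase Plk1 by 2.22 ± 0.80 (adjusted p = 0.0407) and the phosphatase Cdc25c by 2.13 ± 0.73 (adjusted p = 0.0337). Cdc25c was scarce, with 23 counts in all PF and 204 in all AF libraries. The spindle genes Tpx2 (1.96 ± 0.62) and Aurkb (1.55 ± 0.51) and the checkpoint kinase Bub1 (1.81 ± 0.64) also passed.

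Mki67, the gene of the Ki-67 antigen that is used to stain dividing cells, was at 23.4, 5.03, 8.88, 9.63 and 8.37 CPM in PF livers. Its lowest, median and highest AF values were 5.36, 29.9 and 66.8 CPM. AF replicates 6 and 7 were within the PF range and the other 5 AF livers were above it. It passed narrowly in the fit (1.56 ± 0.58, adjusted p = 0.0476), and the exact permutation test gave p = 0.102 (adjusted 0.136).

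Cdc25b (1.09 ± 0.43), Aurka (1.42 ± 0.56), Birc5 (1.18 ± 0.60), Top2a (1.42 ± 0.59) and Kif11 (1.23 ± 0.47) did not pass, with adjusted p-values from 0.0527 for Kif11 to 0.13 for Birc5. Their estimates lay below the 1.55 to 2.88 of the genes that did. The count of 14 G2/M genes depended on single libraries. Leaving out PF replicate 2, 4 or 5 gave 4 calls, PF replicate 3 gave 5, AF replicate 2 or 3 gave 6 and AF replicate 1 gave 8. Leaving out PF replicate 1, AF replicate 6 or AF replicate 7 gave 18. The log2 fold changes of all 28 genes called higher stayed above 0 in these fits, and 11 of the 28 passed in each of the 20 alternative fits.

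**Figure D3:**
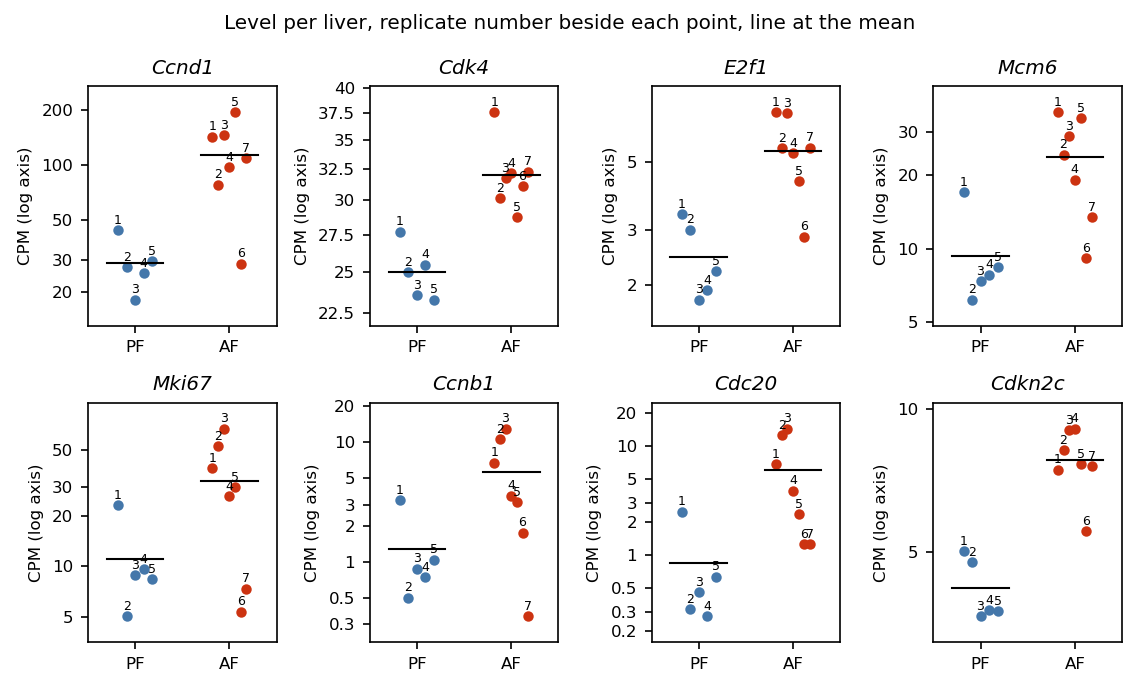
Level of 8 cell cycle genes in each liver in CPM on a log axis, with the replicate number beside each point and a line at the group mean. Cdk4 and Cdkn2c separate the groups, whereas in Mki67 and Ccnb1 AF replicates 6 and 7 lie among or below the PF livers and PF replicate 1 lies high.

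**Figure D4:**
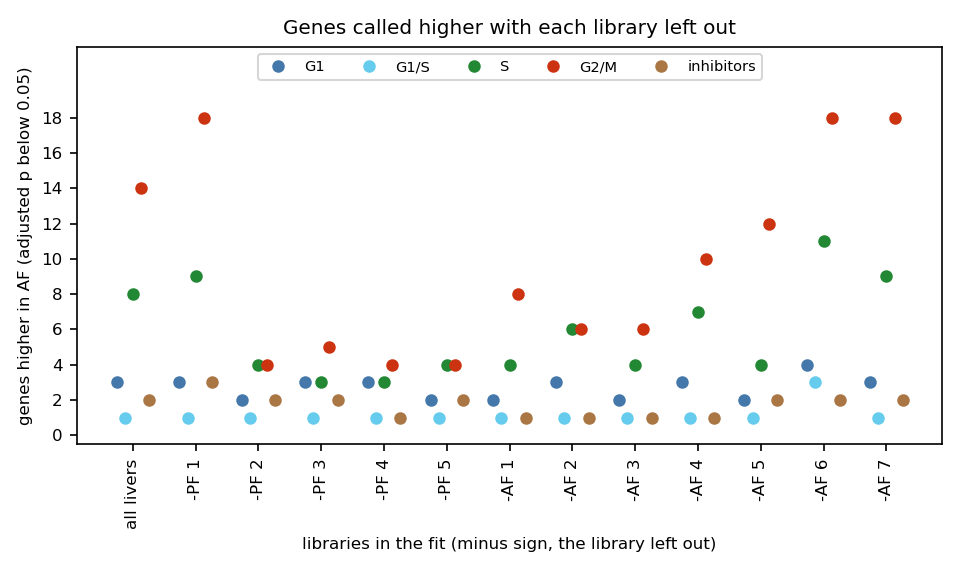
Number of genes called higher in AF livers (adjusted p below 0.05) in each phase, in the fit of all livers and with each library left out. The G2/M count runs from 4 to 18 and the G1 count from 2 to 4.

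The livers differed in how many genes were raised and in which phase. AF replicates 1, 2 and 3 were above every PF liver in 19 of 19 G2/M genes, AF replicate 4 in 17 and AF replicate 5 in 11, whereas AF replicates 6 and 7 were above in 0. PF replicate 1 was the highest PF liver in all 19. Against PF replicates 2 to 5 alone, AF replicates 1 to 5 were above in 19, AF replicate 6 in 7 and AF replicate 7 in 10. AF replicate 3 was the highest AF liver in all 19. Summed over the G2/M genes, the level was 298 CPM in AF replicate 3, 231 in AF replicate 2 and 168 in AF replicate 1, against 29.2 and 35.1 CPM in AF replicates 6 and 7. PF livers held 99.0, 23.5, 33.9, 35.0 and 33.5 CPM.

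The early and the late genes did not rank the livers alike. AF replicate 5 had the most Ccnd1 (195 CPM) and Cdk6 (64.3 CPM) of all livers, and its mean level of the G1 genes was 1.14 log2 units above the PF mean, close to the 1.12 of AF replicate 1. It was also the lowest AF liver for Cdk4 (28.8 CPM) and Ccnd3 (13.8 CPM), the latter below every PF liver. In G2/M it was the lowest of the 5 livers that were raised, at 1.52 log2 units above the PF mean, where AF replicate 3 was at 2.99. AF replicate 2 went the other way, at 0.58 in G1, where only AF replicate 6 was lower among AF livers, and at 2.60 in G2/M, behind only AF replicate 3. AF replicate 7 held 109 CPM of Ccnd1 and was above every PF liver in 4 of 5 G1 genes, yet 17 of its 19 G2/M genes were within the PF range. That range includes PF replicate 1, and 10 of the 19 were above all of PF replicates 2 to 5. The log2 level of Ccnd1 minus that of Ccnb1 was 7.92 in AF replicate 7, 3.72 to 5.51 in PF livers and 2.88 to 5.92 in the other AF livers. The value of 7.92 rests on only 10 counts of Ccnb1. In AF replicate 6, 33 of 47 genes were within the PF range, Cdk4 and Cdkn2c were above it and 12 were below every PF liver. Against PF replicates 2 to 5 alone, 13 of its 47 genes were above. Of the 12 genes below every PF liver, 5 were G1/S genes. The mean level of the G1/S genes in AF replicate 6 was -0.76, against a lowest PF value of -0.24. This liver was the lowest AF liver in all 7 G1/S genes.

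**Figure D5:**
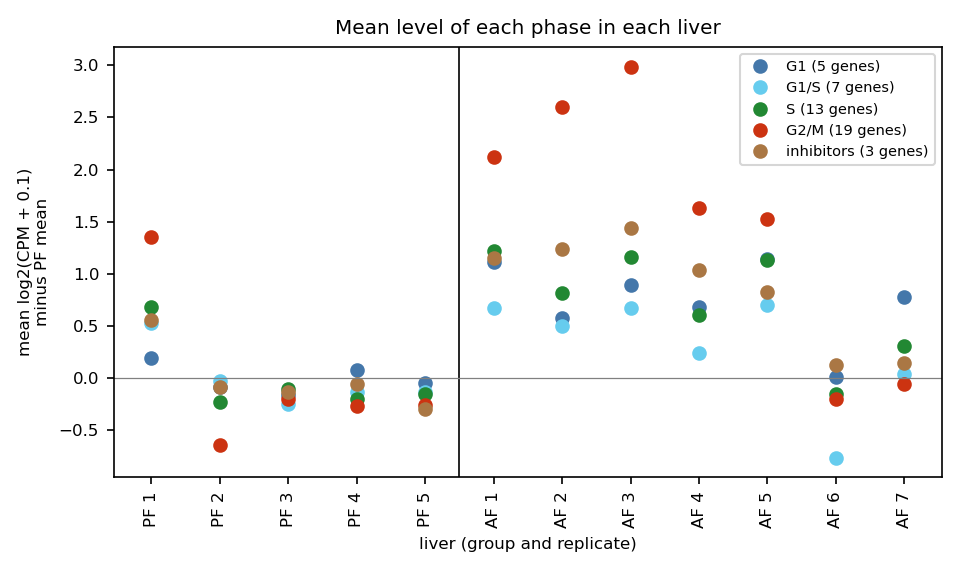
Mean level of the tested genes of each phase in each liver, as log2(CPM + 0.1) minus the PF mean, with 1 point per phase and liver. The G2/M points of AF replicates 1 to 5 lie between 1.52 and 2.99, those of AF replicates 6 and 7 at -0.19 and -0.06, and that of PF replicate 1 at 1.35.

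PF replicate 1 stood apart from the other PF livers. It was the highest PF liver in 42 of the 47 genes and in 19 of 19 G2/M genes, where its mean level was 1.35 log2 units above the PF mean and those of the other PF livers lay between -0.64 and -0.20. Its Mki67 of 23.4 CPM compares with 5.03 to 9.63 CPM in the others. In G1 it was high for Ccnd1 (44.1 CPM) but lowest for Ccnd2 (8.61 CPM). The same liver held 794 CPM summed over 8 neutrophil markers, against 54.0 to 198 CPM in the other PF livers and 45.7 to 180 CPM in AF livers. This included 41.2 CPM of Mpo and 10.6 CPM of Elane, granule genes of neutrophil precursors, which were at 5.93 and 1.45 CPM or less in the other PF livers. The part of these cells in the cell cycle levels was not tested. Without this liver, 34 cell cycle genes were called higher, with a G2/M median of 2.41. Among the 34 was Cdkn2b, which had too few counts for the test of all libraries. It entered this fit through its counts in AF libraries, so its call is no support for the count of 34.

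Among the inhibitors, Cdkn2c rose and Cdkn1b did not. Cdkn2c, which codes for p18 (INK4c), an inhibitor of Cdk4 and Cdk6, was at 5.02, 4.76, 3.67, 3.78 and 3.76 CPM in PF livers and at 5.55, 7.67 and 9.10 CPM in the lowest, the median and the highest AF liver. Each AF liver was above each PF liver, including AF replicates 6 and 7. The log2 fold change was 0.90 ± 0.15 (adjusted p = 0.000632), and the exact permutation test gave p = 0.00126, the smallest that its 792 splits can give (0.0101 adjusted over the 8 genes). Cdkn1b, which codes for p27, the inhibitor of resting cells, was at 12.8 to 17.1 CPM in PF and 11.7 to 19.5 CPM in AF livers (0.09 ± 0.12, adjusted p = 0.605). Its exact permutation p was 0.568 (adjusted 0.615).

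Cdkn3 is named as an inhibitor but codes for a phosphatase that acts on Cdk2 and Cdk1. It was at 1.92 CPM in PF replicate 1, at 0.272 to 0.472 CPM in the other PF livers and at 0.422 to 5.01 CPM in AF livers. As in G2/M, AF replicate 3 was highest, and AF replicates 6 and 7 were lowest. It rose by 1.82 ± 0.66 (adjusted p = 0.0415), with an exact permutation p of 0.0379, which was 0.101 after adjustment over the 8 genes. The call for Cdkn3 was lost without any 1 of PF replicates 2 to 5 or AF replicates 1 to 4, with an adjusted p of up to 0.0947. The count of 2 inhibitors then became 1 without PF replicate 4 or without AF replicate 1, 2, 3 or 4. Without PF replicate 2, 3 or 5 it was 2 only because Cdkn2b entered the test there, through its counts in AF libraries. Of the inhibitors tested with all libraries, Cdkn2c alone passed in those fits.

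The neighbouring genes Cdkn2a and Cdkn2b, which code for p16, p19ARF and p15 and are known markers of senescence, had too few counts for the test. Cdkn2a had 3 counts in all PF and 9 in all AF libraries, which does not exceed 3 counts, the limit that a count of 0 allows, in most single libraries. Its exact permutation p was 0.615, also after adjustment. Cdkn2b had 1, 1, 6, 5 and 1 counts in the PF libraries and 23, 7, 19, 8, 26, 9 and 11 in the AF libraries. On the CPM scale each AF liver was above each PF liver, but the closest values, 0.2502 in AF replicate 4 and 0.25 in PF replicate 3, were all but equal. With the filter lowered to 1 count in any library, edgeR's quasi-likelihood test gave a log2 fold change of 1.88 ± 0.51 for Cdkn2b (adjusted p = 0.0143). PF replicates 1, 2 and 5 held 1 count each, under the limit of 3 counts, so the size of this change is uncertain.

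The genes of each phase can be set beside the sequence at their starts. RefSeq windows on assembly GRCm38.p6, from 250 bases before to 50 bases after a transcript start, were at hand for 39 of the 49 genes (44 windows). They were searched on both strands for the CCAAT box (CCAAT), which binds NF-Y, for the cell cycle homology region or CHR (TTTGAA or TTCGAA), known from promoters of G2/M genes, and for E2F motifs (TTTGGCGC, TTTCCCGC, TTTGCCGC or TTTCGCGC), known from S phase genes. No motif contains another, but E2F matches can overlap each other. The windows of Cdk1, Cdc20 and Cenpf are shown as G2/M genes that passed with each library left out, and those of Mcm6, Mcm3 and Mcm2 as the S genes that did so. Capitals mark the matches on either strand, and each window reads 5′ to 3′ along its gene.
Cdk1, chr10:69352863-69353162, minus strand: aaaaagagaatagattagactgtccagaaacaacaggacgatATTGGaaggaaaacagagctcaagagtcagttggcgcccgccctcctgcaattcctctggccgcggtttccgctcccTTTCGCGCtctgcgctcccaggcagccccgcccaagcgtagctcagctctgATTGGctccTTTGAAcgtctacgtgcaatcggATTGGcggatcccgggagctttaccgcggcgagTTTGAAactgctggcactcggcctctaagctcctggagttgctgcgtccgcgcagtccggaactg
Cdc20, chr4:118437294-118437593, minus strand: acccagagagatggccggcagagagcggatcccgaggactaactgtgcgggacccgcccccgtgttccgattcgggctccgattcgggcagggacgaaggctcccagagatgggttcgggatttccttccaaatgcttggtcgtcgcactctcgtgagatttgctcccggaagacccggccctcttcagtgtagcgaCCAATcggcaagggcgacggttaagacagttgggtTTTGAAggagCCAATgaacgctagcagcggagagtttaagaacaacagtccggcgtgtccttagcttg
Cenpf, chr1:189688037-189688336, minus strand: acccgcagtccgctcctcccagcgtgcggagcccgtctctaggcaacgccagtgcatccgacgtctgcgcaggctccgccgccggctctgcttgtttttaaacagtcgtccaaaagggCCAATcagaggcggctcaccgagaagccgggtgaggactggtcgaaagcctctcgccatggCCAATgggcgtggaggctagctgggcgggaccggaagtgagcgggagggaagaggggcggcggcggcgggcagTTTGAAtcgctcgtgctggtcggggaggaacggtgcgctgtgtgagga
Mcm6, chr1:128359656-128359955, minus strand: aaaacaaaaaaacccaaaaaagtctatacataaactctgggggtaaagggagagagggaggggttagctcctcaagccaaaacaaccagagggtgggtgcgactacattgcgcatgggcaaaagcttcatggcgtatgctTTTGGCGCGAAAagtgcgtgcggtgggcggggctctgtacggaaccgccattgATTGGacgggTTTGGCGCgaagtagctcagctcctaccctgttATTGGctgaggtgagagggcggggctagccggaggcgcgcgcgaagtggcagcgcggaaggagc
Mcm3, chr1:20820263-20820562, minus strand: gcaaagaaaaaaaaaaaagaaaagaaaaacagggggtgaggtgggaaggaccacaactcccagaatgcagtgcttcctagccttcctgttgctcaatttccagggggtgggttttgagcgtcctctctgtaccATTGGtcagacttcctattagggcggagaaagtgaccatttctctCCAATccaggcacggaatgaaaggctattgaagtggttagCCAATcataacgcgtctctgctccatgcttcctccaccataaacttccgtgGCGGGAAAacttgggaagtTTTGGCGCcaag
Mcm2, chr6:88898731-88899030, minus strand: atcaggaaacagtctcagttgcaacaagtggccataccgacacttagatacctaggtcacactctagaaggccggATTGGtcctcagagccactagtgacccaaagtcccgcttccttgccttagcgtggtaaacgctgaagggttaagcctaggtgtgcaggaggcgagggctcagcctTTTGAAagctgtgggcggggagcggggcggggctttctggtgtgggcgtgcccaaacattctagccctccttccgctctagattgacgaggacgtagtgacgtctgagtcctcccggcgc

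The Cdk1 window holds CCAAT boxes that begin 208, 80 and 48 bases before the start, with CHR letters 71 and 15 bases before it and an E2F match 131 bases before it. Cdc20 has CCAAT boxes 53 and 8 bases and a CHR match 18 bases before the start. In Cenpf the CHR match begins at position 3 after the start. The windows of Mcm6 and Mcm3 hold E2F matches and CCAAT boxes but no CHR letters, whereas that of Mcm2 holds a CCAAT box 175 bases and CHR letters 70 bases before the start and no E2F match. Of 14 G2/M windows, 13 (92.9%) held a CCAAT box, 12 (85.7%) held CHR letters and 12 (85.7%) held both, whereas 1 (7.14%), that of Cdk1, held an E2F match. Of 12 S windows, 6 (50%) held an E2F match, 9 (75%) a CCAAT box and 2 (16.7%) CHR letters. Among all 32851 windows of 300 bases, the shares were 37.4% for the CCAAT box, 19.2% for CHR letters, 7.52% for both and 2.26% for E2F motifs. Genes that passed the test and genes that did not shared these letters. Top2a and Aurka, which missed the threshold, had the CCAAT box with CHR letters, and Ccnb1, which passed, had CCAAT boxes 99 and 67 bases before its start without CHR letters. These are matches of letters, not sites of binding.

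Further genes of G2/M and S, outside the 49, were examined in the same fit, beside 22% higher and 17.8% lower of all genes. Of 38 further G2/M and mitosis genes, 27 were higher and 1 was lower (Pttg1, the securin gene), with a median of 1.59. The call for Pttg1 was lost with library totals, with the filter of 1 count in any library, and without any 1 of PF replicates 1 to 4 or AF replicates 3 to 5. The count of higher genes became 8 to 14 without any 1 of PF replicates 2 to 5 or AF replicate 3, and 18 without AF replicate 2. The largest changes were those of Kif20a (2.47 ± 0.64, adjusted p = 0.00871), Prc1 (2.41 ± 0.60, adjusted p = 0.00728) and Hmmr (2.35 ± 0.73, adjusted p = 0.0217), which act at the spindle and in cytokinesis. The call for Hmmr was lost without any 1 of PF replicates 2 to 5, with an adjusted p of up to 0.0551. Of 29 tested further S genes, 10 were higher and 2 lower, with a median of 0.42. Gins2, a subunit of the helicase partner GINS, rose by 2.04 ± 0.38 (adjusted p = 0.00148) and Chaf1a, a histone chaperone of the fork, by 1.59 ± 0.39 (adjusted p = 0.0068). The S count became 5 without PF replicate 2 or 3 and 6 without PF replicate 5. With library totals in place of TMM factors it was 16 higher and 1 lower, where 45.6% of all genes were higher and 6.62% lower.

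Mcm10, which loads polymerase at origins and is no part of the MCM ring, went the opposite way from Mcm2 to Mcm7. It was at 69.0, 110, 50.2, 63.2 and 49.95 CPM in PF livers and at 9.07, 14.6 and 44.4 CPM in the lowest, the median and the highest AF liver. It fell by 1.69 on the log2 scale (SE 0.37, adjusted p = 0.00385), and the groups did not overlap. AF replicates 6 and 7, where the G2/M genes were low, held the most Mcm10 of the AF livers.

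Of 11 further brakes on the cycle, 3 were higher and 2, E2f5 and Rbl2, were lower, which is near the shares of 22% and 17.8% among all genes. With library totals the split of these brakes was 6 higher and 0 lower, where 45.6% of all genes were higher and 6.62% lower. With TMM factors, 5 were higher without AF replicate 5, and 1 was lower without PF replicate 2, 3 or 4 or AF replicate 4. Cdkn1a, which codes for the p53 target p21, was at 4.48, 2.47, 3.38, 3.03 and 12.5 CPM in PF livers and at 16.7, 45.7 and 93.5 CPM in the lowest, the median and the highest AF liver. It rose by 3.07 ± 0.54 (adjusted p = 0.00102) with no overlap between groups, so that the livers with high Mki67 and those without both held more p21 RNA than any PF liver. Cdkn1c (p57) rose by 1.34 ± 0.39 (adjusted p = 0.0153) and the pocket protein gene Rbl1 by 1.14 ± 0.30 (adjusted p = 0.00964). Among 12 genes of growth signals, 6 were higher and 3, Mycn, Egfr and Met, were lower. Areg, an EGF receptor ligand, had 2 counts in all PF libraries and was at 0.457 to 25.7 CPM in AF livers. Egfr, its receptor, fell by 2.25 on the log2 scale (SE 0.47, adjusted p = 0.00274), from 831 to 1695 CPM in PF to 94.0 to 728 CPM in AF livers. Mycn fell by 2.86 on the log2 scale (SE 0.39, adjusted p = 0.000185), from 0.59 to 1.96 CPM in PF to 0.0608 to 0.233 CPM in AF livers. Exons of Gins2, Chaf1a, Kif20a and Prc1 overlap genes on the opposite strand.

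Markers of several cell types differed between the same livers, and their counts stand beside the 22% higher and 17.8% lower of all genes. The counts for hepatocytes, T cells, endothelium and red blood cells rest on 1 to 3 called markers each. Kupffer cell markers were higher in 7 of 8, with sums of 766 to 1095 CPM in PF and 1139 to 3273 CPM in AF livers. Markers of recruited macrophages were higher in 5 of 8 (241 to 575 and 547 to 2199 CPM), namely Cx3cr1, Gpnmb, Trem2, Cd9 and Lyz2. The monocyte markers Ccr2, Itgam and Ly6c2 did not pass, with log2 fold changes of 0.455, 0.774 and -0.837. Most of these sums was Lyz2, at 214 to 516 CPM in PF and 484 to 1863 CPM in AF livers. Stellate cell markers were higher in 7 of 8 (44.2 to 104 and 93.6 to 538 CPM) and those of bile ducts in 4 of 6 tested (58.7 to 253 and 79.6 to 1108 CPM). Hepatocyte markers were lower in 3 of 8, with sums of 105800 to 147700 CPM in PF and 59430 to 110400 CPM in AF livers. For neutrophils 0 of 8, for B cells 0 of 4 tested, for T cells 1 lower of 8, for endothelium 1 higher of 7, and for red blood cells 1 higher and 2 lower of 5 tested markers passed. No marker of these lists was at 0 in all libraries. AF replicates 6 and 7 had mean G2/M levels of -0.19 and -0.06 log2 units, within a PF range whose upper end was PF replicate 1. The highest of the other PF livers was at -0.20. AF replicates 6 and 7 also had the lowest stellate sums of the AF livers (93.6 and 175 CPM), the lowest bile duct sums (94.1 and 79.6 CPM) and the highest hepatocyte sums (110400 and 107000 CPM). Their recruited macrophage sums (547 and 678 CPM) were the lowest of the AF livers too, and that of AF replicate 6 was within the PF range. Kupffer sums of AF replicates 6 and 7 (1447 and 1796 CPM) were above the PF range. The part of any of these cell types in the cell cycle levels was not tested.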

How the data were processed

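Liver RNA of 5 PF and 7 AF mice was sequenced by the authors from poly(A)-selected, stranded libraries. According to the submitters' processing notes and the methods, reads were examined with FastQC 0.10.1, aligned to GRCm38 with TopHat2 2.0.13 and counted with HTSeq 0.10.0. Raw read counts on Ensembl genes, without normalization, were deposited by the authors. The annotation and strand setting of the counting are not given in the sources used here, and the Cuffnorm and Cuffdiff values of the study were not used here.

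Of 54232 IDs, 54165 were named by GENCODE M21. Groups were taken from the labels. Each library was compared with the others of its group (31 pairs), and the lowest ratio of the squared differences to counting noise was 21.1, so none was a repeat. Counts were filtered with filterByExpr, scaled with TMM and tested with edgeR 4.0.16 (quasi-likelihood F test of AF against PF, R 4.3.3), with Benjamini-Hochberg adjustment over 14168 genes and a threshold of 0.05. The standard error was derived from the F statistic. Single genes were tested by exact two-sided permutation of log2(CPM + 0.1) over 792 splits. On data simulated for this comparison with 13962 genes, edgeR recovered 66 of 100 genes changed by 1 on the log2 scale. It recovered 95 of 100 changed by 2, with 7 false calls. Only these genes were changed, as many up as down, whereas 22% of genes were called higher and 17.8% lower in the real data. The figures may therefore not hold for the real comparison. The limit for a count of 0 is 3 counts (95% confidence), which covers counting error only.

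The members, gene lists and motifs were chosen with earlier results of these data known, so no p-value over a list is given. Genes named beside the members are the 3 with the largest absolute log2 fold change past the threshold in each further list, plus Cdkn1a, Alb and markers, and the lower genes of lists with few of them, chosen after their values were seen. Alternatives were DESeq2 1.42.0, limma 3.58.1 (voom with sample quality weights), RLE factors, library totals, other count filters, a replicate block and each library left out. Whether the mice differed in cage, litter or batch is not given in the sources used here.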

Additional observations from a re-analysis of the deposited data

Results flagged for a closer look

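In each group of livers, the highest and the lowest value of each of the 49 genes was set against Dixon's 95% limit. Of 98 such groups, 27 held a value beyond the limit, where chance gives about 1 in 20 (4.9 groups). PF replicate 1 gave 23 of the 27, each time as the highest PF liver. Among S genes it held 11.5 CPM of Mcm4, 6.2 CPM of Mcm5, 17.1 CPM of Mcm6, 26.2 CPM of Pcna, 14.8 CPM of Rrm2 and 1.57 CPM of Cdc6. Among G2/M genes it held 6.99 CPM of Ccna2, 3.25 CPM of Ccnb1, 4.23 CPM of Ccnb2, 5.76 CPM of Cdk1, 2.51 CPM of Cdc20, 2.56 CPM of Cdc25b, 0.591 CPM of Cdc25c and 1.72 CPM of Plk1. It also held 3.4 CPM of Aurka, 2.21 CPM of Aurkb, 2.21 CPM of Bub1, 2.31 CPM of Cenpf, 17.4 CPM of Top2a, 23.4 CPM of Mki67, 5.07 CPM of Tpx2 and 5.51 CPM of Kif11. The last was Cdkn3, with 1.92 CPM. The genes are not independent of each other, since all these values come from 1 library. In the same liver, the sum of 8 neutrophil markers was 794 CPM, the only 1 of 20 groups of marker sums beyond the limit, and its part in the cell cycle levels was not tested.

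The other 4 values came from AF livers. AF replicate 1 was high for Cdk4 at 37.6 CPM. AF replicate 5 was high for Cdk6 at 64.3 CPM and for Ccne2 at 4.11 CPM. AF replicate 6 was low for Gmnn at 3.17 CPM, whose other AF values lay between 8.13 and 10.1 CPM.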

How the results depend on the processing

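With library totals in place of TMM factors, the median log2 fold change of all genes moved from 0.04 to 0.40, 6458 genes were higher and 938 lower, and 5 G1 and 2 G1/S genes were called higher. Under that scaling Cdk2 turned to 0.18, below this median. With limma-voom and sample quality weights, 5 G1 and 4 G1/S genes were called, and the lists of S and G2/M gave 11 and 19. DESeq2 called 31 of 47. With each library left out in turn, the count ran from 12 to 38 over all members, from 2 to 4 in G1, 1 to 3 in G1/S, 3 to 11 in S, 4 to 18 in G2/M and 1 to 3 for inhibitors, and 0 or 1 (E2f8) were lower. The counts over all members and for inhibitors include Cdkn2b where it entered the test. Ccne2 ran from -0.058 (without AF replicate 5) to 0.47 (without PF replicate 1) in the fits with 1 library left out. With a pseudocount of 1 the permutation difference of Cdkn3 was 0.91 (exact p = 0.0505). The cause of these moves was not tested. For no pair of equal replicate numbers was the correlation of deviations above 0.115 and for replicate 2 it was -0.08. Only PF replicate 3 correlated best with the AF liver of its own number. Whether equal numbers mark pair-fed mice is not given in the sources used here. These correlations cannot settle it, since pair-fed mice need not share deviations in expression. A replicate block on replicates 1 to 5, which drops AF replicates 6 and 7, gave 2 G1/S, 11 S and 19 G2/M genes and 3342 higher genes in all. The same libraries without the block, an alternative chosen after seeing the data, gave 3, 12 and 19 and 3613. RLE factors and the 2 filters on counts moved none of the member counts by over 1.5 times. The planned correlations of Mki67 with other genes among AF livers were not run, because these fall into clusters of 2 and 5 livers. Depth limits Cdkn2a and Cdkn2b, which the filter left out, and E2f7 and Cdc25c, the tested members with the fewest counts.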
